A study of Mus musculus with 3 samples.

Results

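Complement is a set of plasma and membrane proteins that marks cells and debris for removal. The 9 complement components and regulators described here, C1qb, C1qc, C3, C4b, Cfd, Cd55, Cd59a, Serping1 and C1qbp, were taken by gene symbol from the 29787 genes that could be named in RNA-seq tables of mouse brain vessels, and all 9 had reads in at least 1 library. The study compared 3-month-old mice in 3 groups of 1 library each. The first carried hGFAP-Cre/Cx43fl/fl, genotype Cx43 -/-, on a C57BL6-BALB/c background, in which a Cre recombinase driven by the human GFAP promoter deletes Gja1, the gene of connexin 43, from astroglia and from other cells that descend from GFAP-expressing progenitors. The second was wild type (WT) on the C57BL6-BALB/c background, and the third was WT C57BL6. The labels do not say whether a WT animal carried Cre or floxed alleles, or how many animals gave each library. With 1 library per group there was no replicate and no test, so every difference below is one between libraries, and an effect of genotype or background cannot be told apart from one of the library.

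The classical route of complement starts when C1q, a bouquet of collagen-like stalks assembled from A, B and C chains, binds antibody or other targets and activates its proteases, which cleave C4 and C2. The alternative route amplifies deposited C3 through factor B and factor D, and all routes meet at C3 and may end in the membrane attack complex. Host cells are protected by regulators: Serping1 (C1 inhibitor) blocks the C1 proteases, Cd55 (decay-accelerating factor) dismantles the convertases, and Cd59a blocks assembly of the membrane attack complex. In the brain, C1q is made chiefly by microglia and other macrophages, and C1q and C3 are known for tagging synapses for removal.

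Promoter sequences are shown for C1qb and C1qc, the C1q genes whose levels lay in the same order in the 3 libraries, and for Cfd, which was read in only 1 of them. They are from RefSeq on GRCm38.p6, run 5′ to 3′ on the strand of the gene, and hold 250 bases before and 50 after the RefSeq start site. RefSeq gave a window for 7 of the 9 genes; C4b and Serping1 were not matched. Capitals mark the letters GGAAGT, the core of sites for ETS factors such as the macrophage regulator PU.1, or GAGGAA, on either strand; these motifs can overlap. C1qb is at chr4:136886151-136886450 on the minus strand, C1qc at chr4:136892865-136893164 on the minus strand and Cfd at chr10:79890603-79890902 on the plus strand.
C1qb: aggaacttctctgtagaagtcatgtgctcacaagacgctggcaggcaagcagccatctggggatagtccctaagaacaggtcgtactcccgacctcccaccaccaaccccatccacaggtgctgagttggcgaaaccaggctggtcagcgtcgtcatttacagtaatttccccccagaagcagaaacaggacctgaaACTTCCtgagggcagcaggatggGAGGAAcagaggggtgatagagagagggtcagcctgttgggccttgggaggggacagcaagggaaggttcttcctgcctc
C1qc: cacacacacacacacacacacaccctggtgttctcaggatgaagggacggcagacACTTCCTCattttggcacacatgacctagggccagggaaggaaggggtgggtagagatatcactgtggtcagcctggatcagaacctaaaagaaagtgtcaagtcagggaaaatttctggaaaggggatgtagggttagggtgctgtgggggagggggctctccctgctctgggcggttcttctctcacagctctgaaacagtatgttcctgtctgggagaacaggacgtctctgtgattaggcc
Cfd: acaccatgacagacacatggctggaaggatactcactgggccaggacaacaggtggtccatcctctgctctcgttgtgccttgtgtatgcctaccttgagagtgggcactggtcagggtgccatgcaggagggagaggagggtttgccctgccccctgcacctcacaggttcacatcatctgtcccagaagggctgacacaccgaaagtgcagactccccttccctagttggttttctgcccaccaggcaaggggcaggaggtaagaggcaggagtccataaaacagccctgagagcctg
Both motifs were present in C1qb, apart from each other, and in C1qc, where they overlapped, and neither was in the Cfd window. Among the 7 member windows, GGAAGT was in 2 and GAGGAA in 3, the third being that of Cd59a. Over all 32851 RefSeq promoter windows, GGAAGT was in 23.8% and GAGGAA in 28.3%. Letters of the TATA, CCAAT and GC boxes, the interferon-stimulated element and the STAT site were also searched. Of these, only the GC box was in a window shown here, that of C1qc. It was in 3 of the 7 member windows and in 35.7% of all windows. The RefSeq start site of C1qc lies 151 bases inside the start of the GENCODE gene.

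Depth differed between libraries, with totals of 54975610 reads in the Cx43-deleted library, against 21170766 for WT C57BL6-BALB/c, with WT C57BL6 at 24830975, a 2.6-fold range. Levels are in CPM, counts scaled to a common library size, with all transcripts of a gene added together, and folds come from the reads of its most abundant transcript with exact binomial 95% intervals that cover counting error only. A read could be counted on several transcripts, so genes with more counted transcripts can weigh more in levels and in sums of markers. Gja1 had a level of 48.0 CPM in the Cx43-deleted library, against 202 CPM in WT C57BL6-BALB/c and 202 CPM in WT C57BL6. All 12 endothelial markers examined, and all 10 astrocyte and 12 microglia markers, reached 1 CPM in at least 1 library, so the vessels carried glial and immune RNA. In such bulk RNA, fewer cells of a type and less RNA per cell cannot be told apart. The libraries also differed in composition. Summed endothelial markers were at 9132 CPM in the Cx43-deleted library, 8339 CPM in WT C57BL6-BALB/c and 12891 CPM in WT C57BL6, and without Slc2a1, the most abundant of them, at 6305, 6686 and 10729 CPM. Summed choroid plexus markers were at 3848, 2778 and 7259 CPM, most of it from Ttr, and granulocyte and monocyte markers at 134, 130 and 683 CPM, in the same libraries. Of the granulocyte and monocyte sum, Lcn2 alone made up 116, 99.3 and 643 CPM, and the other markers came to 17.6, 30.9 and 39.99 CPM.

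Seen across libraries, the 9 genes fell into 3 patterns. C4b, Cd59a and Cfd were above both WT libraries in the Cx43-deleted library, 3 of 9, where 33.2% of the 16604 genes with a level of 1 CPM or more were. C3, Serping1, Cd55 and C1qbp were below both, 4 of 9, where 35.6% of those genes were, and none was so by 2-fold. C1qb and C1qc lay between the WT libraries. Shares this close to those of all genes say nothing particular of the 9.

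**Figure D1:**
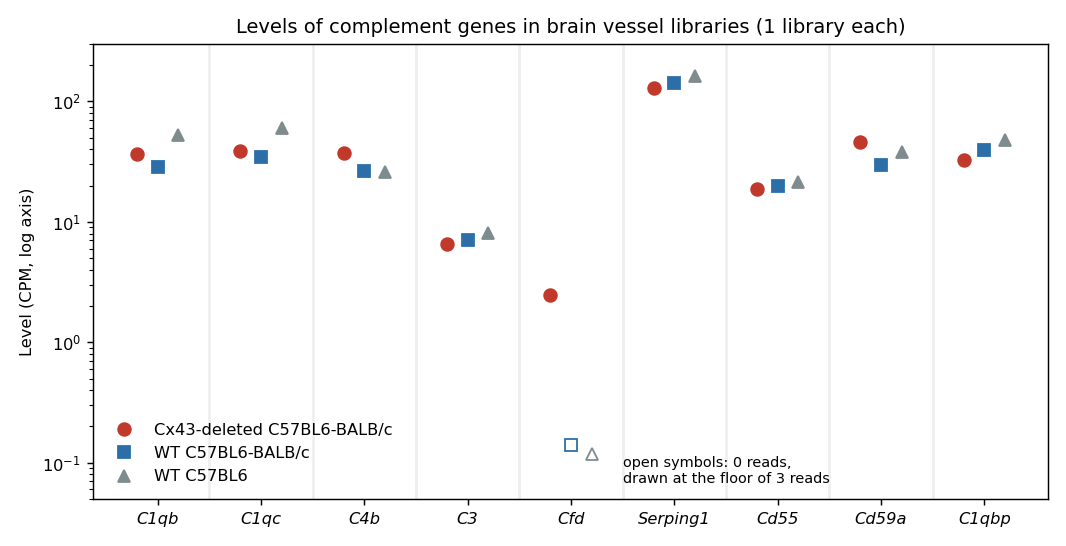
Level of each of the 9 complement genes (CPM, log axis) in the Cx43-deleted library (red circles), WT C57BL6-BALB/c (blue squares) and WT C57BL6 (grey triangles), 1 library each. Most genes lie close together in the 3 libraries; Cfd had 2.46 CPM in the Cx43-deleted library and 0 reads in both WT libraries, drawn as open symbols at the level of 3 reads.

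Levels can be compared between genes only per length, as RPKM, the CPM of the most abundant transcript over its length in kilobases. In the Cx43-deleted library Serping1 was highest at 35.98 RPKM, followed by C1qb at 33.7 and C1qc at 28.2. Cd59a at 16.0 and C1qbp at 15.2 came next, then C4b at 6.99, Cd55 at 4.38, Cfd at 2.85 and C3 at 1.30. The counting intervals of Serping1 and C1qb overlapped, as did those of Cd59a and C1qbp, so their order within each pair was not resolved at this depth.
WT C57BL6-BALB/c had the order Serping1 (39.4), C1qb (26.5), C1qc (25.4), C1qbp (18.3), Cd59a (9.98), C4b (4.89), Cd55 (4.51) and C3 (1.39), in RPKM, with overlapping intervals for C1qb and C1qc. In WT C57BL6, C1qb at 48.0, Serping1 at 46.2 and C1qc at 44.8 RPKM had intervals that overlapped from each to the next. C1qbp at 21.8, Cd59a at 13.4, C4b at 4.86, Cd55 at 4.62 and C3 at 1.59 RPKM followed. In each WT library the interval of C4b overlapped that of Cd55, whereas in the Cx43-deleted library C4b (6.69 to 7.30 RPKM) was clear of Cd55 (4.03 to 4.75 RPKM). Both genes share sequence with near copies, described below, and the intervals do not cover the uncertain split of those reads.

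C1qb (ENSMUSG00000036905; GRCm38 chromosome 4, 136880129 to 136886187) and C1qc (ENSMUSG00000036896; 136889804 to 136893065 on the same chromosome) encode the B and C chains of C1q and are neighbours on the minus strand. C1qb had a level of 36.6 CPM in the Cx43-deleted library, 28.8 CPM in WT C57BL6-BALB/c and 52.2 CPM in WT C57BL6, from 1964, 611 and 1326 reads. It was 1.27-fold (1.16 to 1.39) of the WT C57BL6-BALB/c value and 1.43-fold (1.33 to 1.53) lower than in WT C57BL6. C1qc had 38.8 CPM in the Cx43-deleted library, 34.6 CPM in WT C57BL6-BALB/c and 60.7 CPM in WT C57BL6. It was 1.11-fold (1.01 to 1.22) of the WT C57BL6-BALB/c value and 1.59-fold (1.48 to 1.71) lower than in WT C57BL6. The Cx43-deleted library was thus nearer to WT C57BL6-BALB/c, which shares its background, than to WT C57BL6.

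The largest C1q difference was the one between the WT libraries. WT C57BL6-BALB/c was 1.81-fold (1.64 to 2.00) below WT C57BL6 for C1qb and 1.77-fold (1.61 to 1.94) below it for C1qc. On the log2 scale these were -0.85 and -0.80, and 3.49% and 4.15% of the 16604 genes with a level of 1 CPM or more had a ratio as low. C1qa (chromosome 4, 136895917 to 136898803), the gene of the A chain next to C1qc, had 39.6 CPM in the Cx43-deleted library, 34.9 CPM in WT C57BL6-BALB/c and 62.1 CPM in WT C57BL6, in the order of the other chains. Per length, C1qb stood at 1.19 times C1qc in the Cx43-deleted library, against 1.04 times for WT C57BL6-BALB/c, with WT C57BL6 at 1.07 times.

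Markers of the cells that make C1q also differed between the libraries. Summed over 12 microglia markers, the level was 382 CPM in the Cx43-deleted library, 388 CPM in WT C57BL6-BALB/c and 556 CPM in WT C57BL6. The microglia sum was about level between the C57BL6-BALB/c libraries. Of these 12 markers, 7 were below both WT libraries, 0 were above both and none was at 0 in any library. Of all genes, 35.6% were below both and 33.2% above both. Summed over 10 perivascular macrophage markers it was 239 CPM in the Cx43-deleted library, 204 CPM in WT C57BL6-BALB/c and 277 CPM in WT C57BL6, and again none was at 0. C1qb came to 9.59% of the summed microglia markers in the Cx43-deleted library, against 7.43% for WT C57BL6-BALB/c, with WT C57BL6 at 9.38%, and C1qc to 10.1%, 8.92% and 10.9% in the same libraries. Of the summed perivascular macrophage markers, C1qb came to 15.3%, 14.1% and 18.9% and C1qc to 16.2%, 17.0% and 21.9% in the same libraries, a different order. The part of these cells in the C1q values was not tested.

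**Figure D2:**
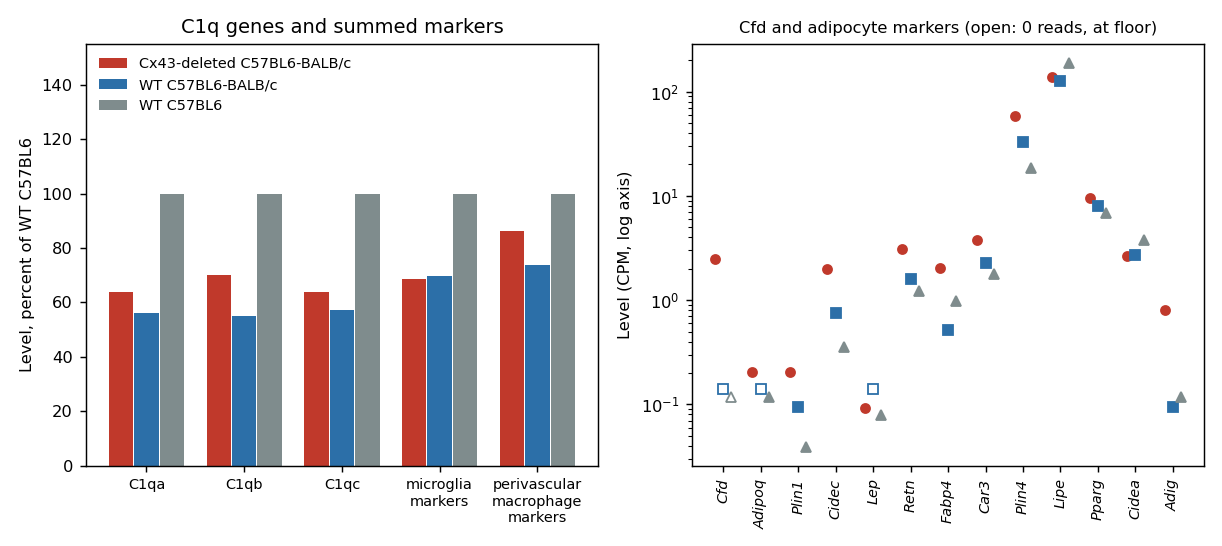
Left, levels of C1qa, C1qb, C1qc and the summed microglia and perivascular macrophage markers, each as a percent of its WT C57BL6 level; right, levels (CPM, log axis) of Cfd and 12 adipocyte markers, with the Cx43-deleted library in red, WT C57BL6-BALB/c in blue and WT C57BL6 in grey. C1qb stood at 70.1% in the Cx43-deleted library and 55.2% in WT C57BL6-BALB/c; open symbols on the right are 0 reads, drawn at the level of 3 reads.

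C4b (ENSMUSG00000073418; GRCm38 chromosome 17, 34728380 to 34743882) encodes the fourth component, the first substrate of the C1 proteases, and lies in the class III region of the mouse major histocompatibility complex. Its level was 37.6 CPM in the Cx43-deleted library, 26.3 CPM in WT C57BL6-BALB/c and 26.1 CPM in WT C57BL6, from 2016, 557 and 664 reads. The WT libraries did not differ beyond counting error (interval of their fold 0.896 to 1.13), and the Cx43-deleted library was above both, by 1.43-fold (1.30 to 1.57) and 1.44-fold (1.32 to 1.57). A gene this far above both WT libraries was among 1.93% of the genes measured. Reads covered 3544 of the 5375 bases of its transcript in the Cx43-deleted library, against 3189 for WT C57BL6-BALB/c, with WT C57BL6 at 3076.

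C4b has a near copy, C4a. Of the 36-base windows of the C4b transcript 44.8% also occur in C4a, so the split of reads between the genes is uncertain. C4a had 4.996 CPM in the Cx43-deleted library, 4.86 CPM in WT C57BL6-BALB/c and 2.56 CPM in WT C57BL6. Adding the C4 genes gave 42.6 CPM in the Cx43-deleted library, 31.1 CPM in WT C57BL6-BALB/c and 28.7 CPM in WT C57BL6, with the Cx43-deleted library still above both. Some cell type markers lay above both WT libraries along with C4b, in each list a smaller share than the 33.2% of all genes. Below both were 35.6% of all genes. These were 2 of 10 astrocyte markers (6 were below both), 3 of 10 perivascular macrophage markers (2 below both), 1 of 12 endothelial markers (8 below both) and 0 of 10 vascular fibroblast markers (8 below both). Among those above both, Fgfr3, an astrocyte marker, had 464 CPM in the Cx43-deleted library, 365 CPM in WT C57BL6-BALB/c and 339 CPM in WT C57BL6. Cd163, a perivascular macrophage marker also above both, had 32.4, 16.9 and 16.6 CPM in the same libraries. Summed astrocyte markers were at 2811, 3028 and 3278 CPM and summed vascular fibroblast markers, mostly Igf2, at 3507, 3544 and 4754 CPM. The part of these cells in the C4b value was not tested.

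C3 (ENSMUSG00000024164; GRCm38 chromosome 17, 57203970 to 57228136), the protein on which all complement routes converge, was the lowest of the 9 per length in the Cx43-deleted library. It had 6.60 CPM in the Cx43-deleted library, 7.07 CPM in WT C57BL6-BALB/c and 8.07 CPM in WT C57BL6, from 354, 150 and 205 reads. Its fold to WT C57BL6-BALB/c was 0.933 (0.769 to 1.14), so no difference was detectable at this depth, and it was 1.22-fold (1.02 to 1.46) lower than in WT C57BL6. Per length, C4b was 5.37 times C3 in the Cx43-deleted library, against 3.50 times for WT C57BL6-BALB/c, with WT C57BL6 at 3.06 times. These ratios carry the uncertain split of reads between C4b and C4a.

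Cfd (ENSMUSG00000061780; GRCm38 chromosome 10, 79890853 to 79892655) encodes factor D, also called adipsin, the serine protease that cleaves factor B and is made chiefly by fat cells. Its single counted transcript of 864 bases had 132 reads in the Cx43-deleted library, spread over 773 of its bases, and 0 reads in either WT library. The level of 2.46 CPM in the Cx43-deleted library would have given 52.2 reads at the depth of WT C57BL6-BALB/c and 62.5 at that of WT C57BL6. A count of 0 allows a level of up to 0.141 CPM in WT C57BL6-BALB/c and 0.118 CPM in WT C57BL6 (3 reads per library). Against that limit the 2.46 CPM of Cfd was 17.4-fold higher than WT C57BL6-BALB/c. Relative to WT C57BL6 it was 20.8-fold higher. Both folds leave out the counting error of the 132 Cfd reads. Per length, the interval of Cfd in the Cx43-deleted library was 2.38 to 3.38 RPKM. The limit was 0.164 RPKM in WT C57BL6-BALB/c and 0.137 RPKM in WT C57BL6. The Cfd transcript shared no 36-base window with transcripts of other genes.

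Of the 29787 genes, 1104 had counts in the Cx43-deleted library and 0 in both WT libraries. The Cx43-deleted library was the deepest, so genes with few reads can enter this class through depth. Of the 1104, 5 reached 1 CPM, and Cfd was the third by level. The others were Igkv4-50 with 181 counts, Igkv4-91 with 146, Serpina11 with 87 and Ighv1-81 with 64, which are immunoglobulin variable segments except for Serpina11, a serpin. Of 12 adipocyte markers, 8 reached 1 CPM, and 6 of these were above both WT libraries in the Cx43-deleted library and 1 below both. The shares of all genes were 33.2% above both and 35.6% below both. Among the markers above both, Fabp4, a fatty acid carrier of fat cells and capillaries, had 2.01 CPM in the Cx43-deleted library, 0.519 CPM in WT C57BL6-BALB/c and 0.984 CPM in WT C57BL6. Cidec, a lipid droplet protein also above both, had 1.99 CPM in the Cx43-deleted library, 0.755 CPM in WT C57BL6-BALB/c and 0.354 CPM in WT C57BL6. Fabp4 and Cidec passed the minimum of 1 CPM only through the Cx43-deleted library, so they could not be counted below both. Adipoq, the adiponectin gene, had 11, 0 and 3 counts, and Lep, the leptin gene, 5, 0 and 2 counts in the same libraries, close to 0. Summed over the 12 markers, the level was 222 CPM in the Cx43-deleted library, 174 CPM in WT C57BL6-BALB/c and 221 CPM in WT C57BL6, most of it from Lipe, and without Lipe it was 82.8, 48.7 and 33.9 CPM in the same libraries. Most of that remainder was again from a single gene, Plin4, at 58.4, 32.6 and 18.7 CPM. Lipe has 4 counted transcripts and Plin4 has 1, and a read could be counted on several transcripts. By reads of the most abundant transcript, Lipe had 2513, 890 and 1606 and Plin4 had 3133, 692 and 475 in the same libraries. Elane, the neutrophil elastase gene, which lies just upstream of Cfd (79886247 to 79888215), had 0, 1 and 5 counts. The part of fat tissue RNA in the Cfd value was not tested.

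Serping1 (ENSMUSG00000023224; GRCm38 chromosome 2, 84765387 to 84775444) was the most abundant per length of the 3 regulators among the 9. It had 129 CPM in the Cx43-deleted library, 142 CPM in WT C57BL6-BALB/c and 162 CPM in WT C57BL6. It was 1.10-fold (1.03 to 1.16) lower than in WT C57BL6-BALB/c and 1.28-fold (1.21 to 1.36) lower than in WT C57BL6, and the WT libraries differed by 1.17-fold (1.10 to 1.25). Each of its 3 counted transcripts, which can share reads, was lowest in the Cx43-deleted library. The most abundant, of 1768 bases, had 3412, 1477 and 2074 reads.

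Cd55 (ENSMUSG00000026399; GRCm38 chromosome 1, 130439027 to 130462744) differed least between the libraries. It had 18.6 CPM in the Cx43-deleted library, 19.9 CPM in WT C57BL6-BALB/c and 21.5 CPM in WT C57BL6. Its fold was 0.972 (0.836 to 1.13) to WT C57BL6-BALB/c and 0.949 (0.824 to 1.09) to WT C57BL6, and both intervals include equality. The transcript with a retained intron and a length of 3133 bases can share counted reads with the main transcript. It took 35.6% as many reads as the main transcript in the Cx43-deleted library, against 36.4% for WT C57BL6-BALB/c, with WT C57BL6 at 40.4%. The near copy of Cd55, Cd55b, had 2, 3 and 0 counts in the same libraries. Since 16.4% of the Cd55 windows occur in Cd55b, the split of reads between them is uncertain.

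Cd59a (ENSMUSG00000032679; GRCm38 chromosome 2, 104095801 to 104115354) was the regulator that stood higher in the Cx43-deleted library. It had 46.2 CPM in the Cx43-deleted library, 29.6 CPM in WT C57BL6-BALB/c and 37.9 CPM in WT C57BL6, from 2478, 628 and 964 counts over its transcripts. By the 1453, 358 and 574 reads of its most abundant transcript it was 1.60-fold (1.43 to 1.81) of the WT C57BL6-BALB/c value and 1.20-fold (1.09 to 1.32) of the WT C57BL6 value. The WT libraries differed by 1.34-fold (1.17 to 1.53), WT C57BL6-BALB/c being lower, which is more than the distance of the Cx43-deleted library to WT C57BL6. Its second transcript of 681 bases can share counted reads with the main transcript. It took 70.5% as many reads as the main transcript in the Cx43-deleted library, against 75.4% for WT C57BL6-BALB/c, with WT C57BL6 at 67.9%. The near copy Cd59b, which shares 7.49% of the Cd59a windows, was level at 3.11 CPM in the Cx43-deleted library, 2.92 CPM in WT C57BL6-BALB/c and 3.03 CPM in WT C57BL6, the split of shared reads being uncertain here too.

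C1qbp (ENSMUSG00000018446; GRCm38 chromosome 11, 70977836 to 70983026) is named for its binding to the globular heads of C1q, but its protein lies mostly in the mitochondrial matrix. It had 32.7 CPM in the Cx43-deleted library, 39.8 CPM in WT C57BL6-BALB/c and 47.5 CPM in WT C57BL6, from 1754, 845 and 1207 counts over its transcripts. By the 956, 456 and 651 reads of its most abundant transcript it was 1.21-fold (1.08 to 1.35) lower than in WT C57BL6-BALB/c and 1.44-fold (1.30 to 1.59) lower than in WT C57BL6. Of the 4 members below both WT libraries it was the furthest, and 9.15% of the genes measured lay as far below both. A retained-intron transcript of 703 bases had 83.5% as many reads as the mRNA in the Cx43-deleted library, against 85.3% for WT C57BL6-BALB/c, with WT C57BL6 at 85.4%. A read could be counted on both, so these percents do not measure the proportion of the transcripts.

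**Figure D3:**
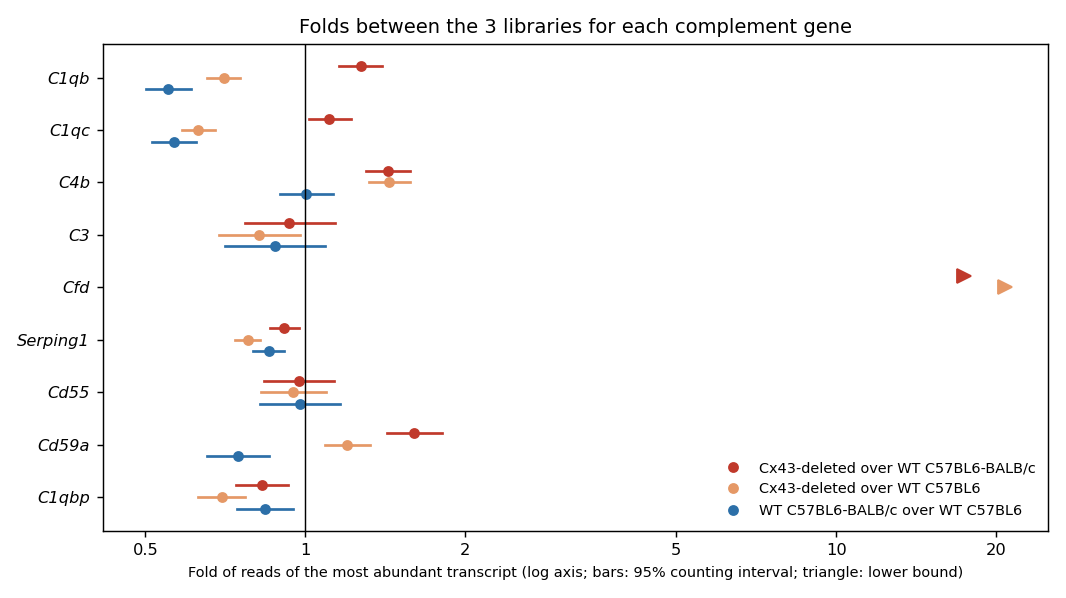
Fold of reads of the most abundant transcript (log axis) for each of the 9 genes: Cx43-deleted over WT C57BL6-BALB/c (red), Cx43-deleted over WT C57BL6 (orange) and WT C57BL6-BALB/c over WT C57BL6 (blue), with 95% counting intervals and triangles for lower bounds. Intervals clear of 1 on the same side in both comparisons of the Cx43-deleted library are those of C4b and Cd59a (higher) and Serping1 and C1qbp (lower). The Cfd triangles, at 17.4 and 20.8, leave out the counting error of its own reads.

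Differences of 2-fold were rare. Cfd alone was 2-fold or more above WT C57BL6-BALB/c, that is 1 of 9, where 1.05% of 16604 genes were, and 0 of 9 were 2-fold lower, where 1.01% were. Against WT C57BL6 it was again 1 of 9 higher, beside 1.54% of all genes, and 0 of 9 lower, beside 2.91%. Between the WT libraries 0 of 9 were 2-fold apart, where 1.17% of genes were higher and 2.09% lower in WT C57BL6-BALB/c. Cfd passed the minimum of 1 CPM only through the Cx43-deleted library, so it could be counted in no other direction.
By 2-fold or more, 1 of 9 was above both WT libraries, beside 0.428% of all genes, and 0 were below both, beside 0.379%. The median log2 ratio of the 9 was 0.16 to WT C57BL6-BALB/c, where that of all genes was 0.0030. To WT C57BL6 it was -0.27, where that of all genes was -0.03, and between the WT libraries it was -0.19, where that of all genes was -0.03. The comparisons with the Cx43-deleted library share that library and are not independent.

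Of 46 other genes of the complement system, 43 could be read and 30 reached 1 CPM in at least 1 library. Against WT C57BL6-BALB/c, 16 of the 30 were higher in the Cx43-deleted library and 14 lower, with a median log2 ratio of 0.03, where 50.5% of all genes were higher and 49.5% lower. Against WT C57BL6, 10 were higher and 20 lower, with a median of -0.37, where 47.1% of all genes were higher and 52.9% lower. By 2-fold or more, 2 were higher and 0 lower against WT C57BL6-BALB/c, and 0 higher and 2 lower against WT C57BL6. These counts are on the log2(CPM + 0.5) scale, which understates low genes: Colec11 (-0.89 and -0.67), and against WT C57BL6 also Hc (-0.96) and C3ar1 (-0.89), the C3a receptor, are 2-fold or more lower in plain CPM and are not counted. WT C57BL6-BALB/c itself lay below WT C57BL6 for 21 of the 30, with a median of -0.32, and above it for 9, where it lay below for 53.3% of all genes and above for 46.7%.

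**Figure D4:**
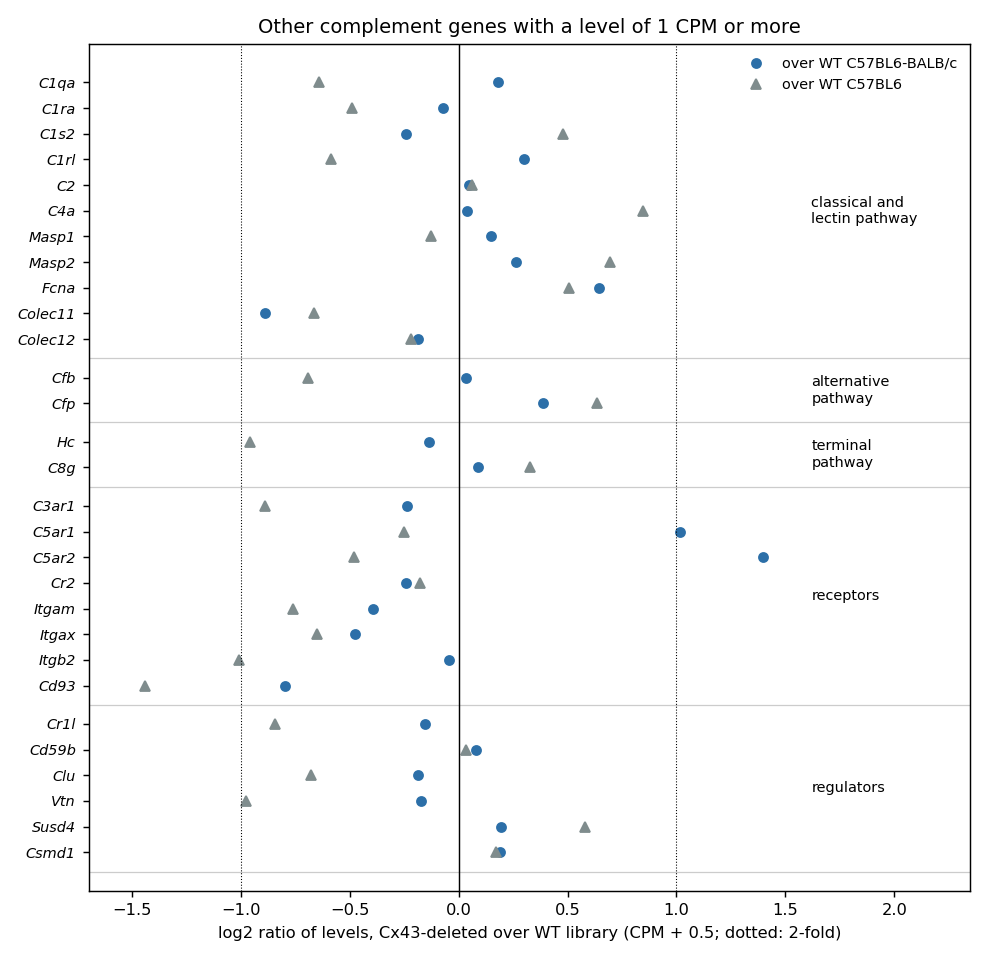
Log2 ratio of levels (CPM + 0.5), Cx43-deleted over WT C57BL6-BALB/c (blue circles) and over WT C57BL6 (grey triangles), for 29 of the 30 other complement genes, grouped by role, with dotted lines at 2-fold. C5ar1 and C5ar2 lie more than 2-fold above WT C57BL6-BALB/c, and Itgb2 and Cd93 more than 2-fold below WT C57BL6.

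The receptors held the widest differences: of 8 that reached 1 CPM, 6 were below both WT libraries, 0 above both and 2 between, where 35.6% of all genes were below both and 33.2% above both. C5ar1, the receptor for the C5a fragment, had 3.56 CPM in the Cx43-deleted library, 1.51 CPM in WT C57BL6-BALB/c and 4.33 CPM in WT C57BL6, from 191, 32 and 110 reads. C5ar2, the second C5a receptor, had 77, 5 and 56 reads and was 6.09-fold (2.50 to 19.3) of the WT C57BL6-BALB/c value, where the count is small. Both C5a receptors thus lay between the WT libraries, like C1qb and C1qc. Cd93, a receptor of endothelial and myeloid cells once described as a C1q receptor, had 105 CPM in the Cx43-deleted library, 183 CPM in WT C57BL6-BALB/c and 287 CPM in WT C57BL6. It was 1.74-fold (1.67 to 1.81) and 2.72-fold (2.63 to 2.82) lower. Of 12 endothelial markers, 1 was above both WT libraries and 8 lay below both; their part in the Cd93 value was not tested. Itgb2, the shared beta chain of the leukocyte integrins, had 14.9 CPM in the Cx43-deleted library, 15.4 CPM in WT C57BL6-BALB/c and 30.5 CPM in WT C57BL6. The granulocyte and monocyte markers without Lcn2, at 17.6, 30.9 and 39.99 CPM in the same libraries, were also highest in WT C57BL6. So were the summed microglia markers, at 382, 388 and 556 CPM. The part of any of these cells was not tested. Itgam, the alpha chain of complement receptor 3, had 23.8, 31.5 and 40.6 CPM in the same libraries, but 68.7% of its exon bases lie in an overlapping gene. Itgax, another alpha chain, had 36, 24 and 34 reads, or 0.671, 1.13 and 1.34 CPM.

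Of 11 other genes of the classical and lectin routes that reached 1 CPM, 4 were above both WT libraries, 3 below both and 4 between. Of 7 other regulators, 3 were above both, 3 below both and 1 between, beside the same shares of all genes. Among the 30 genes, those furthest above both WT libraries were Fcna, Cfp and Masp2, followed by the regulator Susd4. Fcna, a ficolin of macrophages, had 3.45 CPM in the Cx43-deleted library, 2.03 CPM in WT C57BL6-BALB/c and 2.28 CPM in WT C57BL6. Cfp, properdin, which stabilises the alternative convertase that factor D helps to form, had 126 CPM in the Cx43-deleted library, 96.1 CPM in WT C57BL6-BALB/c and 81.0 CPM in WT C57BL6. It was 1.31-fold (1.24 to 1.39) and 1.58-fold (1.49 to 1.68) of the WT values. Cfb, the gene of factor B, was the other gene listed for the alternative route. Its level of 57.5 CPM in the Cx43-deleted library lay between 56.3 CPM in WT C57BL6-BALB/c and 93.4 CPM in WT C57BL6. Of the Cfb exon bases, 79.5% lie in an overlapping gene. Masp2, a protease of the lectin route, had 153, 127 and 94.2 CPM in the same libraries, but 54.9% of its exon bases lie in Tardbp, so the value is uncertain. Colec11, a soluble collectin, had 34, 34 and 33 reads in libraries of different depth, which made it 2.53-fold (1.53 to 4.19) lower than in WT C57BL6-BALB/c. Susd4, a regulator of complement in the nervous system, had 264 CPM in the Cx43-deleted library, 231 CPM in WT C57BL6-BALB/c and 177 CPM in WT C57BL6.

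The terminal pathway, which Cd59a controls, was barely represented. Of its 7 genes only Hc, the gene of C5, and C8g, the gamma chain of C8, reached 1 CPM. Hc had 4.68 CPM in the Cx43-deleted library, 5.19 CPM in WT C57BL6-BALB/c and 9.56 CPM in WT C57BL6. C9, the pore-forming component, had 0, 0 and 2 counts, and Mbl1, a mannose-binding lectin, had 0 counts in all 3 libraries.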

How the data were processed

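The authors deposited, for each of the 3 libraries, a whole-number read count for 82813 Ensembl transcripts, not normalised, with the length of the transcript and its bases without a read, per the file headers. A fraction column deposited by the authors is each count over 1 library total, which gave the totals. Relative to the total, counts sum to 2.55 times in the Cx43-deleted library, with WT C57BL6-BALB/c at 2.53 and WT C57BL6 at 2.45, so a read could be counted on several transcripts. The submitters' processing notes name CASAVA 1.8.2, Bowtie and mm10. Not given in the sources used here are the counting program, its annotation, the read length and how multiply matching reads were handled. Some deposited coordinates run past a chromosome end of the named build, so the deposited coordinates were not used. Which build they are of was not established.

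Transcripts were matched to GENCODE M21 on GRCm38 (69379 matched, 217 on another chromosome left out). Counts were summed per gene and scaled by the total and TMM factors of 0.976, 1.00 and 1.02 (edgeR 4.0.16, R 4.3.3). Log2 ratios used CPM plus 0.5. Folds and intervals used scipy 1.17.1 in Python 3.11.15. A gene was counted at 2-fold. The floor was 3 reads per library. Shared sequence was measured in 36-base windows; read length can differ. The kit named in the labels' protocols does not keep the strand. The 2-fold count and the intervals were tested on simulated counts with counting error only. How often libraries differ by 2-fold without a true change was therefore not tested. Described were all 9 members, other complement genes 2-fold from a WT library or among the 4 furthest outside both, and genes at 0 in both WT libraries; others were named after their values were seen. A single regulator, counted among the other complement genes, is not reported here by name. Members and lists were chosen with earlier results of these data known. Alternatives were scaling by total or median-of-ratios, pseudocounts of 0.1 and 1, the most abundant transcript, and minimum levels of 0 and 5.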

Additional observations from a re-analysis of the deposited data

How the results depend on the processing

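All 9 members kept their direction against each WT library under the other scalings, pseudocounts and transcript choice, and C4b, Cd55 and Cd59a also when summed with C4a, Cd55b and Cd59b, an alternative chosen after seeing the data. Between the WT libraries C4b ran from -0.02 to 0.12 on the log2 scale. The Cfd log2 ratio depends on the pseudocount, from 1.79 with 1 to 4.68 with 0.1, and with a minimum level of 5 CPM 0 members were 2-fold above both WT libraries, since Cfd was left out. For the other complement genes, the number 2-fold higher than WT C57BL6-BALB/c was 1 with scaling by total, and 0 with a pseudocount of 1 or a minimum of 5 CPM; with a pseudocount of 0.1, 1 was 2-fold lower and, between the WT libraries, 1 higher. The number 2-fold lower than WT C57BL6 was 4 with scaling by total or a pseudocount of 0.1, and 1 with median-of-ratios factors, a pseudocount of 1 or the most abundant transcript. With no filter, 23 were lower than WT C57BL6-BALB/c and 18 higher in WT C57BL6-BALB/c than in WT C57BL6. With a minimum of 5 CPM, 9 were higher and 9 lower than WT C57BL6-BALB/c, 6 higher and 12 lower than WT C57BL6, and between the WT libraries 5 were higher, 13 lower and 0 lower by 2-fold; fewer genes were tested. Otherwise the cause was not tested. No paired analysis was possible because each group is 1 library with no replicate number. With 1 library a group, no variation between animals is known, and the intervals cover counting error only.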
